A study of Mus musculus with 8 samples.

Results

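The 10 genes described here mark the wall of blood vessels in brain: Cldn5, Pecam1, Kdr, Flt1, Tek, Tie1, Esam and Icam1 are genes of endothelial cells, and Pdgfrb and Rgs5 are genes of pericytes. They were followed in cerebral cortex at postnatal day 0, in mice null for estrogen-related receptor gamma (ERRγ-/-, called ERRγ-null here) and in wild-type mice. Cortex of that age was chosen by the study for its mainly neuronal cells, so vessel cells are a minor part of the tissue. Members were all probes on an Illumina bead array whose platform symbol was one of these names, which gave 12 probes for 10 genes, out of 25697 probes and 16561 named genes in all. Pecam1 and Flt1 had 2 probes each and the other genes 1. Each genotype had 2 biological samples with 2 technical arrays each, called first and b here, so that 8 arrays stood for 4 samples. The sources used here do not say whether a sample was 1 pup or a pool, how the null allele was made, or which sex and strain were used. The p-values therefore rest only on the spread between these samples, which the test pools in part over genes.

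Endothelial cells of the brain line the capillaries and are sealed by tight junctions, which together with pericytes on their outer surface make the blood-brain barrier. The vessels of the cortex grow in from the surrounding meninges, led by vascular endothelial growth factor (VEGF) from neural cells, and are stabilised by angiopoietin and by platelet-derived growth factor B (PDGF-B), which draws in pericytes. At birth this network is still expanding. ERRγ, the product of Esrrg, is a nuclear receptor with no known natural ligand, known for switching on genes of oxidative metabolism, and in skeletal muscle of mice it has also been linked to angiogenic gene expression.

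Signal was read as normalized log2 intensity, and an array counted as above background for a probe when the detection p was under 0.05. Mean intensity before normalization ran from 547 to 639 on the ERRγ-null arrays and from 390 to 565 on the wild-type arrays. The dimmest of the 8 was the first of wild-type sample 1. With 2 biological samples in each genotype, the number of samples limits the precision. For Esrrg itself the probe stayed at background throughout (detection p from 0.357 to 0.761), so the targeted gene does not check the genotype labels. Of 10 neuronal markers 8 were measured well enough to be tested. The others, Neurod6 and Snap25, were not above background on any array, although the cortex is mainly neuronal. A probe at background is therefore not read here as low expression of its gene. Of 13 meningeal and fibroblast markers only 2 were tested, Dcn and Igf2, and both were highest in ERRγ-null sample 2, as given below. In tissue RNA, fewer vessel cells and less RNA per cell cannot be told apart.

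Vessel genes were present in all samples, but not equally well measured. Cldn5, Esam, Flt1, Tek and Pecam1 were above background on all 8 arrays, Rgs5 on 7, Kdr and Icam1 on 4, Pdgfrb on 2 and Tie1 on 1. The second Flt1 probe (detection p from 0.485 to 0.901) and the second Pecam1 probe (0.0576 to 0.292) were not above background on any array. A probe had to be above background on at least 4 arrays to be tested, which left 8 of the 10 members among 8098 genes tested. Icam1 passed that filter only through its 4 ERRγ-null arrays.

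None of the 8 tested members passed the test for a difference between ERRγ-null and wild-type cortex (0 of 8 by limma at an adjusted p under 0.05). The same test called 0.0123% of all genes, which is 1 gene, Xlr4a, named here after its value was seen. Fitted on every kept probe separately it called 0.00864% of the probes and 0 of the 8 member probes. At an unadjusted p under 0.05, which 7.22% of all genes reached, the members' count was 1, Icam1, and nothing is read from it because Icam1 entered the test only through the genotype in which it was higher. Of the 8 members 4 were higher and 4 lower in ERRγ-null cortex, where 50.6% of all genes were higher. Their log2 differences, ERRγ-null minus wild-type, ran from -0.22 (Rgs5) to 0.45 (Icam1, against wild-type arrays at background) with a median of 0.02, against a median of 0.003 over all genes. Both ERRγ-null samples lay above both wild-type samples for 2 members, Cldn5 and Icam1, as they did for 17.7% of all genes, and both lay below for 0 members, as for 17.3% of all genes. In either direction the groups were apart for 2 of the 8 members and for 35.1% of all genes. For 6 of the 8 members the 2 samples of 1 genotype were farther apart than the genotype means, and the same held for 76.6% of all genes.

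**Figure D1:**
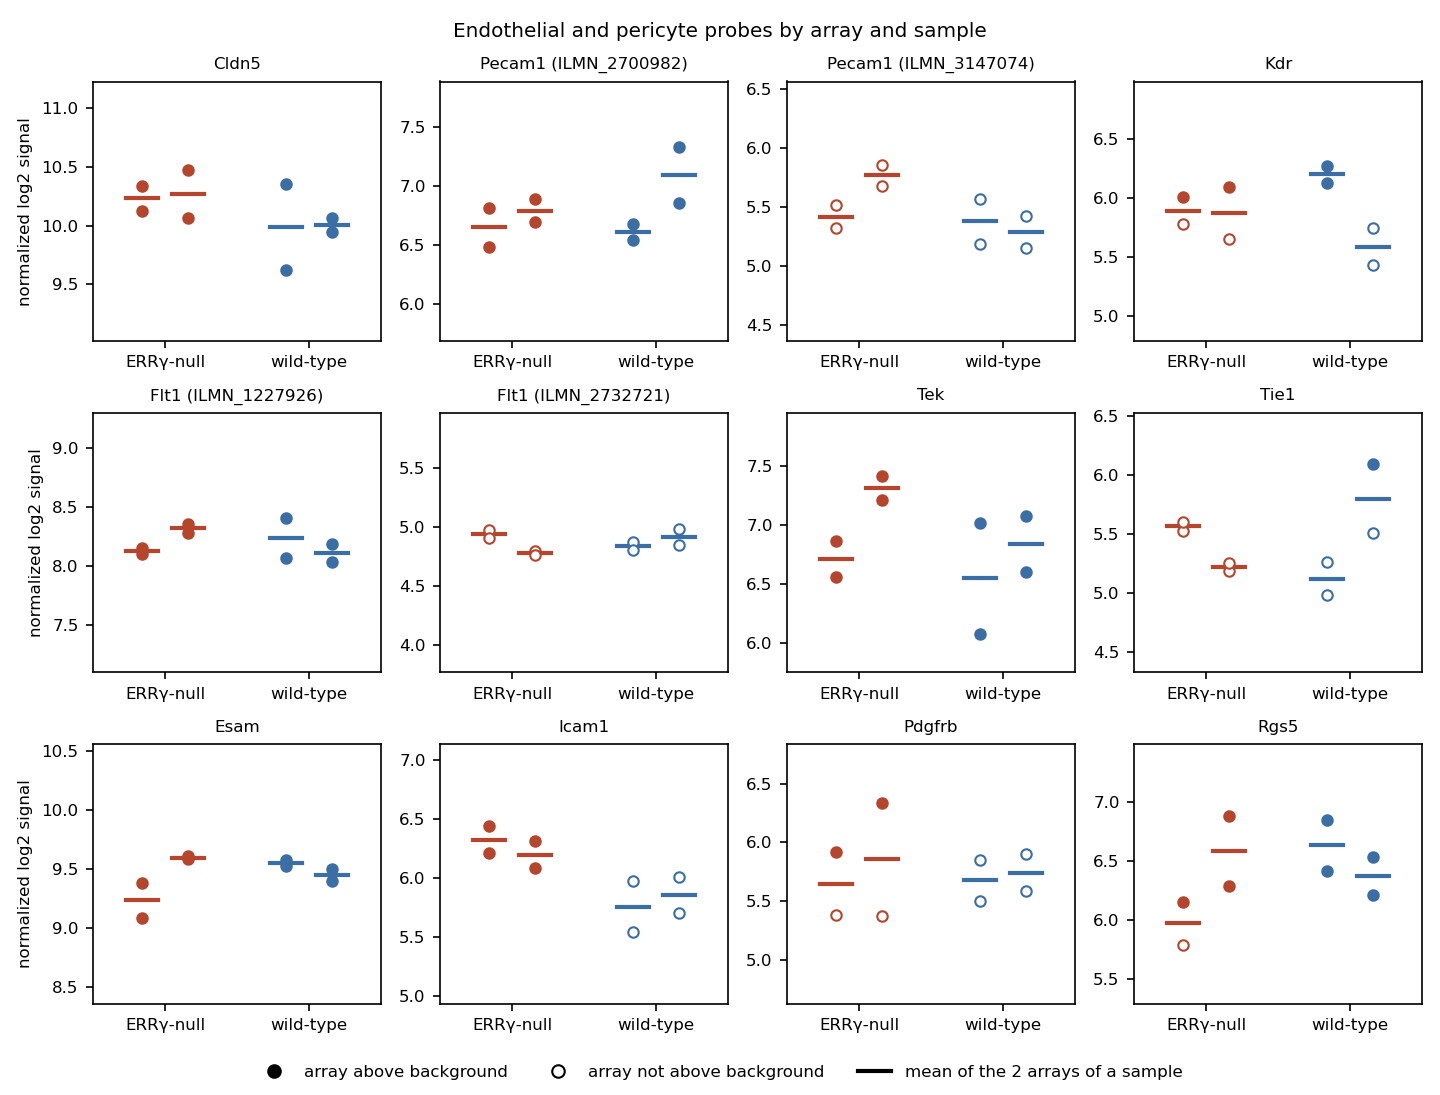
Normalized log2 signal (vertical axes, each spanning the same range of log2 units) of the 12 probes in ERRγ-null and wild-type cortex. Each point is an array, filled where it was above background, and each bar is the mean of the 2 arrays of a sample. For Icam1 the 4 ERRγ-null arrays are filled and the 4 wild-type arrays are open, with the nearest at 6.09 and 6.01. The arrays of the other 11 probes overlap between the genotypes. How often all arrays lie apart was not counted over all probes.

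Among the junction and adhesion members, Cldn5 and Icam1 were the ones with both ERRγ-null samples above both wild-type samples. Cldn5 (probe ILMN_1241293) encodes claudin-5, the main sealing protein of endothelial tight junctions. Its log2 signal was 10.23 and 10.27 in the ERRγ-null samples, against 9.987 and 10.002 in the wild-type samples. The ERRγ-null samples were both higher, and the samples of a genotype lay close together. The difference was 0.26 (SE 0.15, 95% confidence interval -0.07 to 0.58, limma adjusted p = 0.790), a fold of 1.19. This SE is wider than the 4 samples of Cldn5 alone would give, because limma draws each variance towards that of the other genes.

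The closeness of the wild-type Cldn5 samples hid a gap between arrays. Unnormalized intensity was 1253 and 1727 on the arrays of ERRγ-null sample 1 and 1264 and 1626 on those of sample 2, against 622 and 1268 in wild-type sample 1 and 1091 and 1168 in wild-type sample 2. After normalization the arrays of wild-type sample 1 still differed by 0.73. With the first of them left out the Cldn5 difference was 0.07 (limma adjusted p = 0.980). The b arrays alone gave 0.25 and the first arrays alone 0.26, but these rested on different wild-type arrays. The b arrays lay at 10.33 and 10.47 in the ERRγ-null samples, against 10.35 and 9.94 in wild-type samples 1 and 2. The first arrays lay at 10.13 and 10.07 in the ERRγ-null samples, against 9.62 and 10.06 in wild-type samples 1 and 2.

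Icam1 (probe ILMN_2896601) encodes an adhesion molecule that leukocytes bind when they attach to endothelium. It can also be made by microglia, astrocytes and other cells. Its log2 signal was 6.33 and 6.20 in the ERRγ-null samples, against 5.76 and 5.86 in the wild-type samples. By array the unnormalized intensities were 183, 211, 171 and 186 in ERRγ-null cortex, against 138, 135, 161 and 154 in wild-type cortex. After normalization the lowest ERRγ-null array lay at 6.09 and the highest wild-type array at 6.01. How often all arrays lie apart was not counted over all genes, so nothing is read from that order. None of the wild-type arrays was above background (detection p from 0.0539 to 0.114). The wild-type level is therefore only a bound. With this normalization and the 2 arrays of a sample averaged, the measured ERRγ-null mean was 1.22-fold above that bound. No difference is read from this value, since Icam1 entered the test only through its ERRγ-null arrays. The bound sets each wild-type array at its own value or at its dimmest probe above background, whichever is higher, and leaves out sampling error. Taking the background-level wild-type values as they stand, the fit gave 0.45 (limma adjusted p = 0.509). That fitted value was 0.16 with the first arrays alone and 0.75 with the b arrays alone, and 0.20 without background correction.

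Cldn5 and Icam1 were each other's nearest member in its pattern over the 4 samples (root mean square difference 0.119 after centring), with the Icam1 wild-type values at background. Flt1 and Esam were also each other's nearest and were closer (0.0931). The 250 bases before the starts of Cldn5 and Icam1 are shown, from RefSeq on GRCm38.p6, with matches to the GC box (GGGCGG, either strand) in capitals. These genes were picked because their samples did not overlap between the genotypes, which for Icam1 rests on wild-type values at background. The Cldn5 window lies on the plus strand at chr16:18776597-18776846 and the Icam1 window on the plus strand at chr9:21015690-21015939.
Cldn5: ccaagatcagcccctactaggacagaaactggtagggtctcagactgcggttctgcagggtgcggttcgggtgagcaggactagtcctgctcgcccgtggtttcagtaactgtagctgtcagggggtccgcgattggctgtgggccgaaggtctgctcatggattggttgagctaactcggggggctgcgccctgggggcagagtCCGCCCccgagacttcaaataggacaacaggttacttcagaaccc
Icam1: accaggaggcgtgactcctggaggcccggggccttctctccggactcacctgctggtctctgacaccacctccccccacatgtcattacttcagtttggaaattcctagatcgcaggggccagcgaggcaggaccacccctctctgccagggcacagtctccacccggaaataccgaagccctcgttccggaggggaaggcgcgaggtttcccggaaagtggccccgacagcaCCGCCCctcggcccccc
Windows were at hand for 7 members: Cldn5, Icam1, Kdr, Flt1, Tek, Tie1 and Rgs5. Searched on both strands in the 250 bases before the start, the half-site bound by estrogen-related receptors (AAGGTCA) was found in 0 of the 7 and in 4.08% of 32851 promoter windows, and an ETS motif (CAGGAAG) in 0 of the 7 and in 10.8%. The GC box was in 4 of the 7 (Cldn5, Icam1, Kdr and Flt1) and in 32.7% of all windows. The NF-κB consensus was searched as GGGRNWYYCC (R is A or G, N any base, W A or T, Y C or T). An exact match was in Kdr and Flt1 and in 3.90% of all windows. The Icam1 window holds TGGAAATTCC, which differs from this pattern at its first base and was not counted. The TATA box (TATAAA) was in Flt1 and in 12.4% of all windows. These motifs did not overlap one another in the members' windows. Only exact matches were counted, so that near forms of the ETS motif, for example CAGGAAA in Rgs5 and TAGGAAG in Flt1, were left out. A match describes letters in these windows and no more. The absence of one says nothing about near forms in the windows, or about binding there or elsewhere.

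The other junction and adhesion members overlapped between the genotypes. Esam (probe ILMN_2690839) encodes an immunoglobulin-family protein of endothelial junctions. Its log2 signal was 9.23 and 9.59 in the ERRγ-null samples, against 9.55 and 9.45 in the wild-type samples, so that the groups overlapped. The difference was -0.09 (SE 0.17, 95% confidence interval -0.44 to 0.27, limma adjusted p = 0.976), and was 0.0938 without ERRγ-null sample 1. Pecam1 encodes CD31, a junctional adhesion molecule of endothelium that leukocytes and platelets also carry. The Pecam1 probe tested (ILMN_2700982) lay at 6.65 and 6.79 in the ERRγ-null samples, against 6.62 and 7.10 in the wild-type samples. Wild-type sample 2 was the highest and the groups overlapped, with a difference of -0.13 (SE 0.18, 95% confidence interval -0.51 to 0.24, limma adjusted p = 0.948). Without wild-type sample 2 the Pecam1 difference was 0.11. The second Pecam1 probe (ILMN_3147074) read 5.42 and 5.77 in the ERRγ-null samples, against 5.38 and 5.29 in the wild-type samples, all at background.

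The VEGF receptors were close to equal in their means. Flt1 encodes VEGF receptor 1, which binds VEGF tightly and in development acts largely as a trap for it. The Flt1 probe tested (ILMN_1227926) lay at 8.13 and 8.32 in the ERRγ-null samples, against 8.24 and 8.11 in the wild-type samples. The groups overlapped, and the range of 0.21 over the 4 samples was the narrowest of the 8 tested members. The Flt1 difference was 0.05 (SE 0.16, 95% confidence interval -0.29 to 0.39, limma adjusted p = 0.989). The sources used here do not say which Flt1 transcript forms each probe reads.

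Kdr (probe ILMN_2665788) encodes VEGF receptor 2, the main signalling receptor for VEGF in endothelium. It lay at 5.90 and 5.87 in the ERRγ-null samples, against 6.20 and 5.59 in the wild-type samples. The ERRγ-null samples lay between the wild-type samples. Kdr was above background on 2 of 4 arrays in each genotype, and in wild type these were both arrays of sample 1, so that wild-type sample 2 was at background. The difference was -0.01 (SE 0.19, 95% confidence interval -0.41 to 0.39, limma adjusted p = 0.995). Without wild-type sample 1 it was 0.29 and without wild-type sample 2 it was -0.32.

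The angiopoietin receptor gene varied most. Tek (probe ILMN_1220170) encodes Tie2, whose activation by angiopoietin-1 keeps vessels quiescent. Its log2 signal was 6.71 and 7.32 in the ERRγ-null samples, against 6.55 and 6.84 in the wild-type samples. ERRγ-null sample 2 was the highest, ERRγ-null sample 1 lay between the wild-type samples, and the range of 0.77 was the widest of the 8 tested members. The difference was 0.32 (SE 0.19, 95% confidence interval -0.09 to 0.73, limma adjusted p = 0.790). Leaving out ERRγ-null sample 1 gave 0.62, and leaving out ERRγ-null sample 2 gave 0.02. The arrays of wild-type sample 1 differed by 0.95, and with the first of them left out the Tek difference was 0.08.

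Tie1 (probe ILMN_2928560) encodes the related receptor that modulates Tie2. It was above background on 0 of 4 ERRγ-null arrays and on 1 of 4 wild-type arrays, and was not tested. Its values were 5.56 and 5.22 in the ERRγ-null samples, against 5.12 and 5.80 in the wild-type samples, which overlapped. The 3 genes closest to Tek in pattern over the 4 samples were Hcfc2, Fbxo8 and Rerg, with root mean square differences of 0.034, 0.039 and 0.045 from the centred Tek values. That likeness rests on 4 samples and was picked from 8098 genes.

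The pericyte members lay close to background. Rgs5 (probe ILMN_2979824) encodes a regulator of G protein signalling that marks brain pericytes. It lay at 5.97 and 6.58 in the ERRγ-null samples, against 6.63 and 6.37 in the wild-type samples. ERRγ-null sample 1 was the lowest and held the 1 array of 8 not above background, while ERRγ-null sample 2 lay between the wild-type samples. The difference was -0.22 (SE 0.19, 95% confidence interval -0.63 to 0.19, limma adjusted p = 0.904). Leaving out ERRγ-null sample 1 gave 0.08, and leaving out ERRγ-null sample 2 gave -0.53.

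Pdgfrb (probe ILMN_2903972) encodes the receptor through which PDGF-B recruits pericytes. It was above background on 2 of 4 ERRγ-null arrays and 0 of 4 wild-type arrays, and was not tested. Its values were 5.65 and 5.86 in the ERRγ-null samples, against 5.68 and 5.75 in the wild-type samples. Without any filter on dim probes the fitted Pdgfrb difference was 0.04 (SE 0.12, limma adjusted p = 0.991) and that of Tie1 -0.07 (SE 0.24, limma adjusted p = 0.993), both for probes mostly at background.

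**Figure D2:**
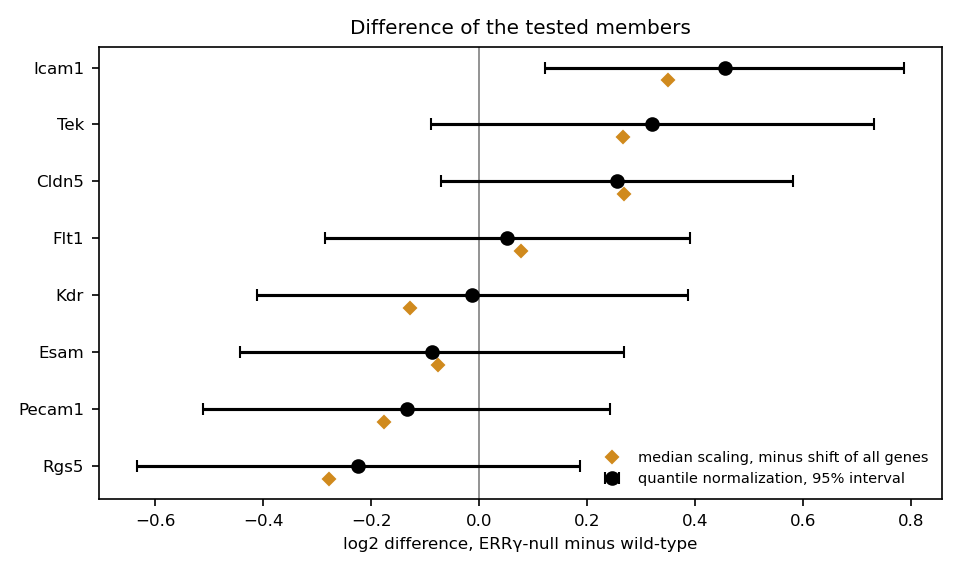
Log2 difference (horizontal axis, ERRγ-null minus wild-type) of the 8 tested members with the 95% confidence interval of the limma fit. Diamonds give the difference when arrays were scaled by their medians, after subtracting the shift of 0.17 that this scaling gave all genes. The intervals of the other 7 members include 0, and that of Icam1 is not to be read as a measured difference, since its wild-type arrays were all at background.

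Technical arrays of a sample differed by up to 0.95 (Tek) and by as little as 0.02 (Esam) among the tested members, and over all genes the consensus correlation of the arrays of a sample was 0.10. The second ERRγ-null sample was above the first for 6 of the 8 members, against 52.0% of all genes. With median scaling of the arrays, used instead of quantile normalization, the median difference was 0.17 over all genes and 0.17 over the members. Relative to the shift, the differences were then 0.35 for Icam1, 0.27 for Tek, 0.27 for Cldn5, 0.08 for Flt1, -0.08 for Esam, -0.13 for Kdr, -0.18 for Pecam1 and -0.28 for Rgs5, and 0 members passed.

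No other endothelial identity gene passed the test. Of 26 listed, 25 were on the array and 17 were tested, of which 6 were higher and 11 lower in ERRγ-null cortex, with a median of -0.11. At an unadjusted p under 0.05, 3 were lower (3.62% of all genes) and 0 higher (3.61% of all genes). Podxl, the gene for a sialomucin on the luminal face of endothelium, lay at 7.05 and 6.87 in the ERRγ-null samples, against 7.71 and 7.3996 in the wild-type samples. Both ERRγ-null samples were lower, and the difference was -0.60 (SE 0.17, limma adjusted p = 0.439). Sox18, a transcription factor gene of endothelial development, lay at 6.53 and 6.43 in the ERRγ-null samples, against 7.16 and 6.94 in the wild-type samples, with a difference of -0.57 (SE 0.16, limma adjusted p = 0.439). The third of these was Vwf, the gene for von Willebrand factor, with -0.33, named after its value was seen. Over all alternatives run the difference of Podxl ran from -0.75 to -0.36 and that of Sox18 from -0.68 to -0.30, and neither passed in any of them. Cdh5, which encodes VE-cadherin, a defining marker of endothelium, was not above background on any array.

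Genes of the blood-brain barrier had a median of -0.02 over 8 tested of 17 on the array, 4 higher and 4 lower, with 0 past the test. The glucose transporter gene Slc2a1 lay at 9.42 and 9.37 in the ERRγ-null samples, against 9.65 and 9.31 in the wild-type samples. The lipid transporter gene Mfsd2a, which restrains transcytosis in brain endothelium, lay at 9.27 and 9.34 in the ERRγ-null samples, against 9.22 and 9.31 in the wild-type samples. Their differences were -0.09 and 0.04 (limma adjusted p = 0.976 and 0.989), within the spread of the samples. The smallest p-values in the list belonged to the thyroid hormone transporter gene Slco1c1 with -0.30 (SE 0.16, limma adjusted p = 0.750) and the junctional adhesion gene Jam2 with -0.20 (SE 0.16, limma adjusted p = 0.886).

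Other pericyte and smooth muscle genes had a median of -0.07 over 9 tested of 20 on the array, 4 higher and 5 lower, with 0 past the test. Cspg4, which encodes the NG2 proteoglycan of pericytes and oligodendrocyte precursors, lay at 6.897 and 6.996 in the ERRγ-null samples, against 7.09 and 7.25 in the wild-type samples. The difference was -0.22 (SE 0.16, limma adjusted p = 0.849). Higd1b, a pericyte-enriched gene, differed by -0.39 (SE 0.16, limma adjusted p = 0.599) and was above background on 1 of 4 ERRγ-null arrays and all 4 wild-type arrays. Mcam, an adhesion gene of vessel wall cells, differed by -0.32 (SE 0.16, limma adjusted p = 0.710), whereas its 2 other probes gave 0.12 and 0.05. Anpep was not above background on any array, and Kcnj8 on 1.

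Angiogenic ligands had a median of 0.05 over 12 tested of 23, 7 higher and 5 lower, with 0 past the test. Vegfa, the ligand of Kdr and Flt1, lay at 9.61 and 9.94 in the ERRγ-null samples, against 9.87 and 9.79 in the wild-type samples, with a difference of -0.06 (SE 0.17, limma adjusted p = 0.989). A second Vegfa probe gave -0.36. Vegfb, a ligand of Flt1, differed by 0.30 (SE 0.16, limma adjusted p = 0.750). The chemokine gene Cxcl12 differed by 0.32 (SE 0.18, limma adjusted p = 0.779), and its 2 other probes gave -0.16 and 0.02. The first value rested on ERRγ-null sample 2, since it was 0.0451 without that sample and 0.59 without ERRγ-null sample 1. Pdgfb, the ligand of Pdgfrb, lay at 6.83 and 7.10 in the ERRγ-null samples, against 6.98 and 7.19 in the wild-type samples, and differed by -0.12. Angpt1 and Angpt2, the ligands of Tek, were each above background on 3 arrays and were not tested.

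Receptors and coreceptors had a median of 0.02 over 13 tested of 21, 7 higher and 6 lower, with 0 past the test. Ptprb encodes VE-PTP, a phosphatase that dampens Tie2. It lay at 6.94 and 7.27 in the ERRγ-null samples, against 6.77 and 6.54 in the wild-type samples, and differed by 0.45 (SE 0.17, limma adjusted p = 0.535). Nrp1, a coreceptor for VEGF that neurons also use for semaphorins, lay at 11.56 and 11.44 in the ERRγ-null samples, against 12.07 and 11.68 in the wild-type samples. The difference was -0.37 (SE 0.17, limma adjusted p = 0.673), and the second Nrp1 probe gave -0.46.

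Hypoxia and VEGF control genes had a median of 0.01 over 12 tested of 15, 6 higher and 6 lower, with 0 past the test. Ppargc1a, the gene for the coactivator PGC-1α, which partners estrogen-related receptors and can raise Vegfa, differed by 0.38 (SE 0.16, limma adjusted p = 0.620) and was above background on all 4 ERRγ-null arrays and 1 of 4 wild-type arrays. The hypoxia-responsive gene Ddit4 differed by 0.28 (SE 0.16, limma adjusted p = 0.780). Leukocyte adhesion genes other than Icam1 had a median of -0.15 over 4 tested of 8 on the array, with 0 past the test. Among them Alcam lay at 6.81 and 7.19 in the ERRγ-null samples, against 7.595 and 7.402 in the wild-type samples, a difference of -0.50 (SE 0.17, limma adjusted p = 0.509). Vcam1, which like Icam1 is induced on activated endothelium, differed by -0.36 (SE 0.18, limma adjusted p = 0.711). The value rested on wild-type sample 1, since it was -0.11 without that sample and -0.60 without wild-type sample 2. The selectin genes Sele and Selp were not above background on any array.

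**Figure D3:**
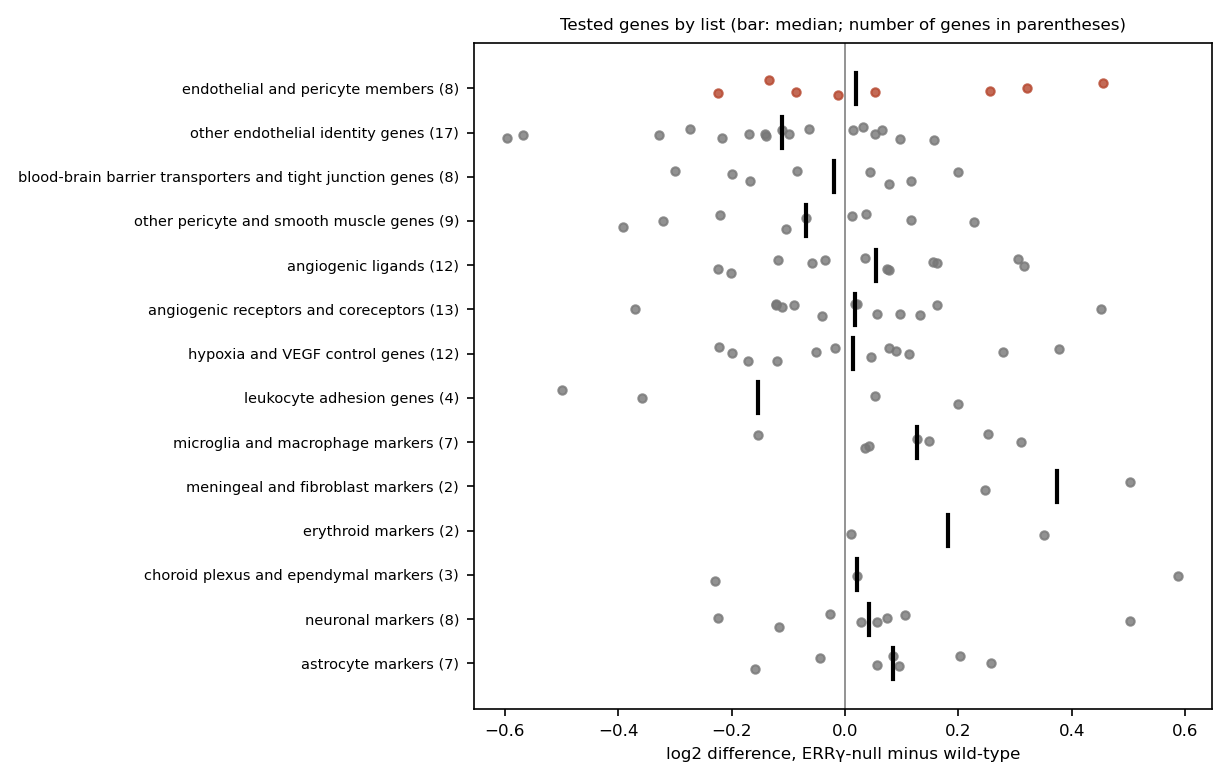
Log2 difference (horizontal axis, ERRγ-null minus wild-type) of each tested gene, by list, with the list's median as a vertical bar and the number of tested genes in parentheses. The medians of the other endothelial, barrier and other pericyte lists lie between -0.11 and -0.02, that of the members is 0.02, and the members spread from -0.22 to 0.45.

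Markers of cells that adjoin vessels were read in the same samples. Microglia and macrophage markers, of which 7 of 13 on the array were tested, had a summed linear signal of 1272 and 1463 in the ERRγ-null samples, against 1419 and 1182 in the wild-type samples. Their median difference was 0.13 with 6 of 7 higher and 0 past the test, led by Fcer1g with 0.31 and Cx3cr1 with 0.25. Tyrobp, P2ry12 and Ptprc of that list were not above background on any array. Meningeal and fibroblast markers, of which 2 of 13 were tested, had a summed signal of 1334 and 2780 in the ERRγ-null samples, against 1681 and 1545 in the wild-type samples. ERRγ-null sample 2 was the highest and ERRγ-null sample 1 the lowest. Nearly all of this sum came from Igf2, by far the brighter of the 2 genes, so it is not a measure of the whole list. Dcn, a connective tissue proteoglycan gene, lay at 5.40 and 7.12 in the ERRγ-null samples, against 5.87 and 5.64 in the wild-type samples, above background on 2 of 4 arrays in each genotype, and Igf2, a growth factor gene also expressed in meninges, lay at 10.34 and 11.37 in the ERRγ-null samples, against 10.66 and 10.55 in the wild-type samples. Col1a1, Col3a1 and Lum were not above background on any array.

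The 6 members higher in ERRγ-null sample 2 than in sample 1, as Dcn and Igf2 were, were Tek, Rgs5, Esam, Flt1, Pecam1 and Cldn5. Icam1 ran the other way, with 6.33 in sample 1 and 6.20 in sample 2. The part that adjoining cells have in the Tek, Rgs5 and Icam1 values was not tested. The mean log2 signal of the 8 members was 7.39 and 7.62 in the ERRγ-null samples, against 7.44 and 7.41 in the wild-type samples, and that of the 17 other endothelial genes was 7.41 and 7.44 in the ERRγ-null samples, against 7.60 and 7.53 in the wild-type samples.

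**Figure D4:**
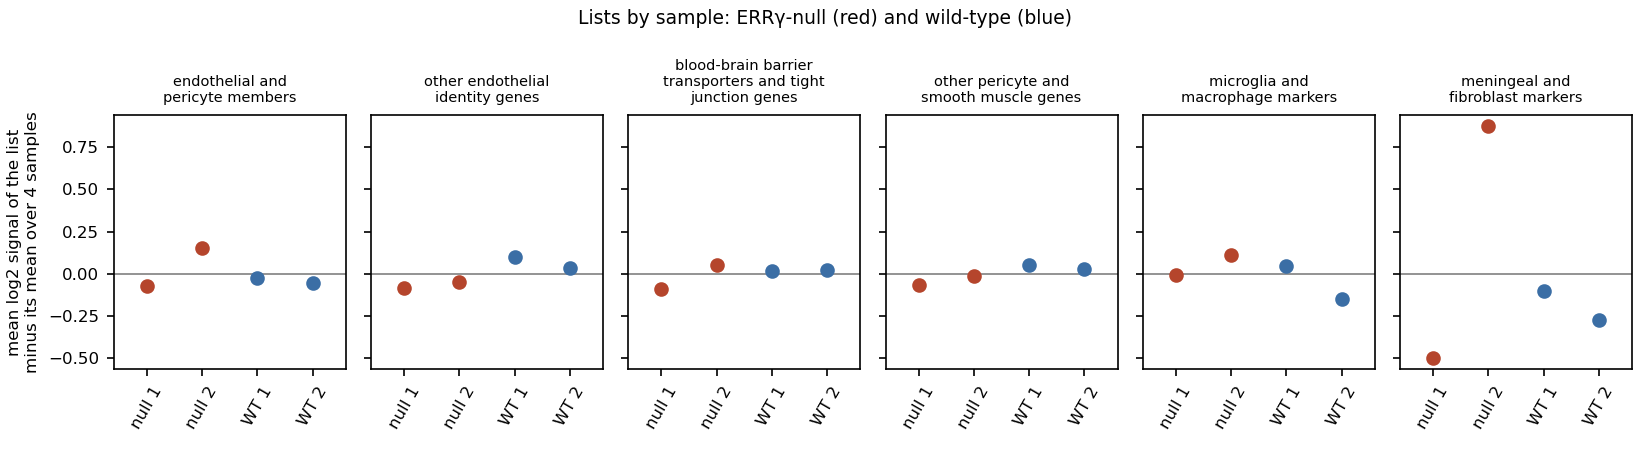
Mean log2 signal of the tested genes of 6 lists in each sample, minus the list's mean over the 4 samples (vertical axis, log2 units). Each point is a sample. ERRγ-null sample 2 is the highest for the members and stands farthest out for the 2 meningeal and fibroblast genes. The mean of the 17 other endothelial genes is lower in both ERRγ-null samples than in both wild-type samples. Taken singly, 4 of the 17 were lower in that way, as were 17.3% of all genes, and 6 of the 17 had a higher ERRγ-null mean. The summed linear signal of the 17 overlaps between the genotypes (4184 and 4800 in the ERRγ-null samples, 4988 and 4415 in wild type). The mean log2 signal of the 9 other pericyte and smooth muscle genes is also lower in both ERRγ-null samples (6.83 and 6.89, against 6.95 and 6.93). How often list means lie apart was not counted.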

How the data were processed

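Total RNA was extracted with Trizol, cleaned with DNase I treatment and labelled as biotinylated cRNA for Illumina arrays, per the labels' protocols. The authors deposited 1 mean bead intensity per probe and array, linear and not normalized as far as the values show, with a detection p-value beside each, per the file headers. The submitters' processing notes name GenomeStudio. A second deposited table held intensities brought to 1 common distribution by a method not given in the sources used here. It is linear, its array medians lay between 142.5 and 142.7, and within each array it kept the rank order of the unnormalized values (rank correlation 1). It served as an alternative.

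Intensities were processed in R 4.3.3 with limma 3.58.1. The neqc step estimated background through the detection p-values, with an offset of 16, followed by quantile normalization and log2. Probes with a detection p under 0.05 on at least 4 of 8 arrays were kept (11568), and a gene was read by its brightest kept probe (8098 genes). The 2 arrays of a sample were averaged, giving n = 2 in each genotype. The test was limma's (lmFit, eBayes, two-sided), adjusted by Benjamini-Hochberg over the 8098 genes, at a threshold of 0.05. The fit had 14.0 prior and 2 residual degrees of freedom, and was tested on simulated data. Symbols came from the platform annotation: 23846 probes had 1 symbol, 1851 none and 0 several. Entrez identifiers of 23830 probes matched RefSeq, and 0 symbols changed. The files name no build, so gene coordinates were not used. Promoter windows are RefSeq's on GRCm38.p6.

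The members and the 13 other lists (211 entries with the members, 198 on the array) were chosen with earlier results of these data known, as were the tests, and support nothing independently. Named genes were all members, the 2 smallest p-values of each other list, and Cdh5, Cspg4, Vegfa, Angpt1, Angpt2, Pdgfb, Nrp1, Slc2a1 and Mfsd2a. Anpep, Kcnj8 and the marker genes given as not above background were added after their values were seen. Likeness was the root mean square difference of centred values over the 4 samples. Alternatives covered background, normalization, the deposited table, filter, technical arrays, variance estimate, replicate block, each sample left out and the probe per gene. A run without the dimmest array was added after seeing the data.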

Additional observations from a re-analysis of the deposited data

How the results depend on the processing

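No member passed under any of the 18 alternatives run. The count of all genes past the threshold, 1 in the analysis above, was 20 with median scaling, 12 with the replicate block, and 0 with detection on all 8 arrays, no filter, robust variance estimation, a gene's kept probes averaged, or either set of technical arrays alone. Leaving out 1 sample gave from 0 to 22 genes, 0 without either ERRγ-null sample, 22 without wild-type sample 1 and 17 without wild-type sample 2. The labels link same-numbered samples by a number alone. The correlation of their deviations from the genotype means was 0.0081 over 8098 genes. With 2 samples in each genotype this value cannot show whether such samples were paired. The replicate block changed no member's call. The members' median, 0.02, was 0.17 with median scaling, 0.15 with the first arrays alone and -0.0584 with the b arrays alone. Leaving out 1 sample it ran from -0.0228 without ERRγ-null sample 2 to 0.147 without wild-type sample 1. Several differences that had not passed changed sign, and the cause was not tested. Under median scaling these were Kdr (0.0449), Esam (0.0974), Slc2a1 (0.0981), Pdgfb (0.0366) and Vegfa (0.123), all below the shift of all genes. With the first arrays alone they were Pecam1 (0.0804), Kdr (0.198), Mfsd2a (-0.154), Hba-a1 (-0.0195) and Tubb3 (-0.0156), and with the b arrays alone Flt1 (-0.026), Slc2a1 (0.0957), Alas2 (-0.0683) and Aqp1 (0.0349). Without the dimmest array they were Kdr (0.0237), Flt1 (-0.0339) and Hba-a1 (-0.0527). Leaving out 1 sample, differences on both sides of 0 ran as follows: Pecam1 from -0.376 to 0.107, Kdr from -0.32 to 0.294, Flt1 from -0.0434 to 0.147, Esam from -0.268 to 0.0938, Rgs5 from -0.529 to 0.081, Slc2a1 from -0.254 to 0.0836, Pdgfb from -0.251 to 0.0149, Vegfa from -0.223 to 0.107, Dcn from -0.355 to 1.36, Igf2 from -0.27 to 0.762, Alas2 from -0.0629 to 0.766, Hba-a1 from -0.171 to 0.194, Aqp1 from -0.519 to 0.0604, Gja1 from -0.0521 to 0.459. With 1 sample left out, 31 of the 39 named genes with a difference moved by over 1.5 times, and Cldn5, Icam1, Podxl, Sox18, Higd1b, Mcam, Ppargc1a and Fcer1g did not. With 2 samples in each genotype, not moving only means that samples of a genotype lay close together relative to the difference. Those of these genes that are not members were named for small p-values, which favours such closeness. It does not cover the other alternatives, nor wild-type values at background, as for Icam1. Cldn5, Tek and Icam1 kept their sign in every alternative that gave a value. Detection on all 8 arrays left out Kdr, Icam1 and Rgs5.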

Other observations

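Cells with no direct part in the vessel wall were read for comparison. Neuronal markers had a median log2 difference, ERRγ-null minus wild-type, of 0.04 over 8 tested of 10, with 0 past the test. Rbfox3, the gene for the neuronal nuclear antigen, differed by -0.22, and the probe of the neuronal tubulin gene Tubb3, above background on 3 of 4 ERRγ-null and 1 of 4 wild-type arrays, by 0.50. Astrocyte markers had a median of 0.08 over 7 tested of 9, with Fabp7 at 0.26 and the gap junction gene Gja1 at 0.20. Choroid plexus and ependymal markers had a median of 0.02 over 3 tested of 8 on the array, where the BMP antagonist gene Sostdc1 differed by 0.59 (SE 0.19, limma adjusted p = 0.480) and the water channel gene Aqp1 by -0.23. The choroid plexus gene Ttr was not above background on any array. Erythroid markers, a measure of blood left in the vessels, had a median of 0.18 over 2 tested of 6 on the array. Hba-a1, an alpha globin gene, lay at 12.57 and 12.20 in the ERRγ-null samples, against 12.29 and 12.46 in the wild-type samples, a difference of 0.01, and Alas2 differed by 0.35. No gene of these 4 lists passed the test.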
